A study of Rattus norvegicus with 6 samples.

Results

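The oligodendrocyte lineage genes examined here were the 9 genes *Olig1*, *Olig2*, *Pdgfra*, *Cspg4*, *Sox10*, *Nkx2-2*, *Gpr17*, *Mbp* and *Cnp*, chosen by name among the 17315 rows of the expression tables. They were read in adult rat hippocampal NSCs, a line that was isolated and cloned from the hippocampus of adult rats, as RNA-seq of poly(A) RNA. All 6 samples had been grown with bFGF and then kept for 2 days in quiescence medium with BMP4, so there was no sample without BMP4. The siControl group (3 samples) had been transfected with a control siRNA duplex and the siDerl1 group (3 samples) with 1 duplex against *Derl1*, which encodes Derlin-1, a membrane protein of ER-associated degradation; an effect of the duplex itself and of the loss of Derlin-1 cannot be told apart. The samples of each group were numbered 1 to 3. The sources used here do not say whether they were separate cultures, and p-values then measure only the spread between these samples. Values are in TPM, which scales each gene by its length and each sample to the same total, so that levels can be compared between genes. From these values the sequencing depth cannot be told and is unknown.

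Oligodendrocytes make the myelin of the central nervous system. Their progenitors are specified by the bHLH transcription factors Olig1 and Olig2, keep dividing in response to PDGF through the receptor Pdgfra, carry the proteoglycan NG2 on their surface (encoded by *Cspg4*) and turn on Sox10, which in turn activates myelin genes. BMP signaling is known to turn neural precursors away from this fate and toward astrocytes, in part through the Id proteins, which bind bHLH factors and their partners and keep them from DNA.

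The transcription factors of the lineage were transcribed at a high level in every sample, with BMP4 present. *Sox10* (NM_019193) stood at 726, 626 and 584 TPM in siControl samples 1, 2 and 3 and at 787, 649 and 541 TPM in siDerl1 samples 1, 2 and 3. It ranked between 176 and 259 among the 17315 genes of a sample, and its groups overlapped. *Nkx2-2* (NM_001191904), a homeodomain factor that promotes the differentiation of progenitors, was at 107, 145 and 185 TPM with the control duplex and at 94.1, 155 and 166 TPM with the *Derl1* duplex. *Olig2* (NM_001100557) read 164, 116 and 118 TPM with the control duplex, and 129, 135 and 118 TPM with the duplex against *Derl1*. *Olig1* (NM_021770), its neighbor, with 0 genes between the pair in the RefSeq annotation of GRCr8, was at 112, 102 and 105 TPM and at 100, 105 and 86.4 TPM. In each of these 4 genes the ranges of the groups overlapped.

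Myelin genes were transcribed as well. *Cnp* (NM_012809), which encodes a phosphodiesterase of the myelin sheath that appears early in the lineage, read 629, 613 and 565 TPM in the siControl samples, and 655, 654 and 578 TPM in the siDerl1 samples. *Mbp*, which encodes myelin basic protein and is listed with 6 RefSeq transcripts, was at 261, 295 and 245 TPM and at 340, 304 and 258 TPM. The values add up all 6 transcripts and do not tell apart the forms of *Mbp*, some of which are also made outside myelin. *Cnp* varied little between samples, and the groups of both genes overlapped.

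The surface and receptor genes of progenitors were lower and differed widely among themselves. *Pdgfra* (NM_012802), the receptor for PDGF-AA, read 69.8, 43.9 and 37.1 TPM in the siControl samples, and 42.5, 37.9 and 28.8 TPM in the siDerl1 samples. *Gpr17* (NM_001071777), a G protein-coupled receptor of progenitors that are about to differentiate, was at 3.0, 2.63 and 1.49 TPM and at 1.89, 2.31 and 2.07 TPM. *Cspg4* (NM_031022) read 0.34, 0.17 and 0.21 TPM with the control duplex, and 0.06, 0.15 and 0.16 TPM with the *Derl1* duplex. The NG2 gene thus lay under 1 TPM in all 6 samples, whereas the gene of the other surface marker, *Pdgfra*, had a mean of 43.4 TPM. In *Pdgfra* only siControl sample 3 lay below siDerl1 samples 1 and 2, and in *Cspg4* the groups did not overlap.

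By mean TPM over the 6 samples the order was *Sox10* (652), *Cnp* (616), *Mbp* (284), *Nkx2-2* (142), *Olig2* (130), *Olig1* (102), *Pdgfra* (43.4), *Gpr17* (2.23) and *Cspg4* (0.182). *Sox10* was above *Cnp* in 4 of the 6 samples, and *Nkx2-2* was above *Olig2* in 4 of the 6, so that the order within these pairs did not hold in every sample. All the other neighbors in this order had ranges that did not overlap.

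**Figure D1:**
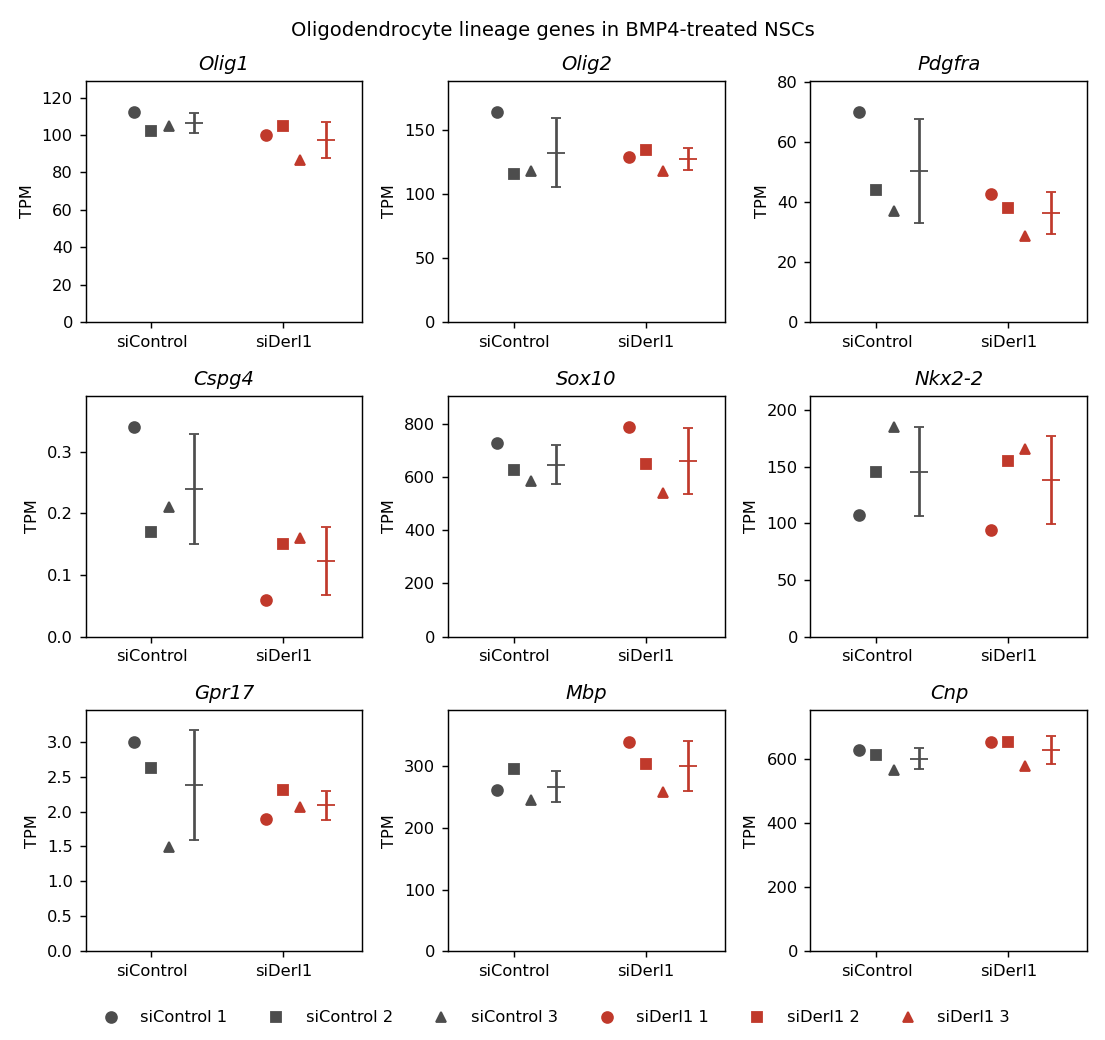
TPM of each of the 9 genes on axes that start at 0, with siControl NSCs in grey and siDerl1 NSCs in red; circles, squares and triangles are samples 1, 2 and 3, and the bar gives the mean ± SD (n = 3). The groups overlap in every panel but that of *Cspg4*, which stays under 1 TPM, and *Nkx2-2* has both circles at the bottom while *Sox10* has both at the top.

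Other genes of the lineage were read from lists. Of 30 myelin and mature oligodendrocyte genes, 27 were in the tables and 13 reached at least 1 TPM in all 6 samples. *Pllp*, which encodes the membrane protein plasmolipin, was at 216 ± 61.7 TPM in siControl NSCs and 232 ± 80.2 TPM in siDerl1 NSCs (SD, n = 3 each), and *Qdpr*, which encodes dihydropteridine reductase, at 135 ± 15.4 and 143 ± 4.49 TPM. By contrast, *Mog*, *Mobp*, *Mal* and *Klk6*, which are genes of mature myelinating cells, were listed at 0 in all 6 samples, and *Mag*, *Cldn11* and *Opalin* did not exceed 0.95, 0.67 and 0.27 TPM in any sample. These 7 genes were picked out after their values had been seen.

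Of 18 genes of committed and newly formed oligodendrocytes, 16 were found and 11 reached at least 1 TPM in all samples. *Bcas1*, a marker of early myelinating cells, was at 400 ± 35.1 and 401 ± 66.6 TPM in siControl and siDerl1 NSCs. The kinase gene *Fyn* was at 258 ± 13.8 and 255 ± 6.54 TPM. Of 22 further progenitor genes, 21 were found and 17 reached at least 1 TPM in all samples. Among these *Bcan*, which encodes the proteoglycan brevican, was at 476 ± 33.1 and 470 ± 42.2 TPM, and *Ptprz1*, a receptor phosphatase gene, at 201 ± 34.5 and 198 ± 52.4 TPM (SD, n = 3 in each group).

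Several of the 9 genes also mark other cells, so markers of those cells were read. Neural stem cell markers were present: *Sox2* was at 483 ± 34.8 and 512 ± 53.8 TPM in siControl and siDerl1 NSCs (SD, n = 3 each), and 7 of the 8 marker genes found reached at least 1 TPM in all samples, with *Prom1* listed at 0. For pericytes and mesenchyme, which share *Pdgfra* and *Cspg4*, 9 of 12 markers stayed under 1 TPM in every sample, *Rgs5*, *Kcnj8*, *Lum* and *Dcn* were listed at 0, and the summed level ran from 4.33 to 4.98 TPM in siControl and from 3.69 to 4.69 TPM in siDerl1 NSCs. The highest of this list were *Tagln* (2.10 ± 0.301 and 0.487 ± 0.639 TPM), *Col1a1* (1.04 ± 0.281 and 1.67 ± 0.270 TPM) and *Pdgfrb* (0.393 ± 0.116 and 1.25 ± 0.248 TPM). The part of these 3 genes in the levels of *Pdgfra* and *Cspg4* was not tested. For endothelium all 5 markers stayed under 1 TPM, *Kdr*, *Tek* and *Pecam1* being the highest. For microglia 10 of 12 did, with a sum of at most 9.36 TPM and with *P2ry12* and *Cd68* as the exceptions and *Tmem119* next. Of the 6 markers of Schwann cells and neural crest found, which share *Sox10*, the receptor genes *Erbb3* and *Ngfr* and the myelin gene *Pmp22* were above 20 TPM, with a summed level of the list of 382 to 394 TPM in siControl and 283 to 314 TPM in siDerl1 NSCs; *Erbb3*, *Ngfr* and *Pmp22* are also made in the oligodendrocyte lineage or in other neural cells. For astrocytes 6 of 8 markers reached 1 TPM in all samples, with sums of 1208 to 1434 TPM in siControl and 1295 to 1686 TPM in siDerl1 NSCs and a median log2 fold change of 0.30, while *Aqp4* and *Aldh1l1* stayed under 1 TPM. The highest of these were *Aldoc* (661 ± 41.7 and 788 ± 67.5 TPM), *S100b* and *Slc1a3* (72.9 ± 18.0 and 65.7 ± 16.2 TPM). Of 9 neuronal markers, 5 reached 1 TPM in all samples, with sums of 203 to 241 TPM over both groups, most of it from *Tubb3*, *Gad1* and *Syt1*. In such bulk samples, more cells of a type and more RNA per cell cannot be told apart.

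**Figure D2:**
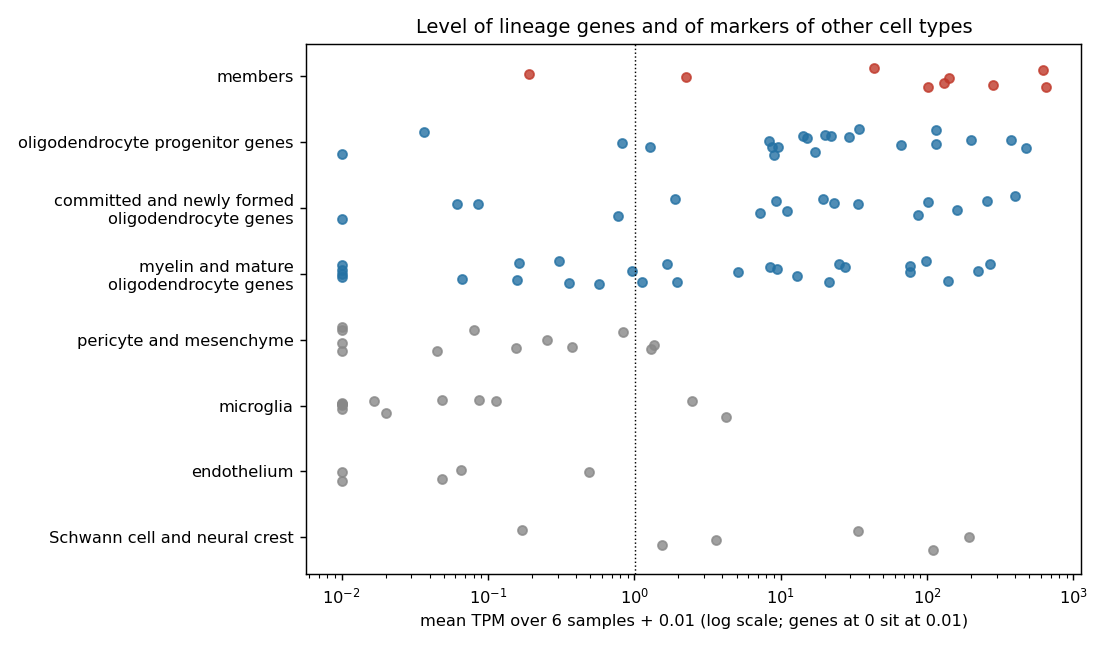
Mean TPM over the 6 samples on a log scale, 1 point per gene, for the 9 genes (red), further lineage genes (blue) and markers of other cell types (grey); the dotted line marks 1 TPM. Lineage genes pass 100 TPM at each stage, whereas the pericyte, microglia and endothelium markers lie near or under 1 TPM. Genes listed at 0 sit at the left edge. These were 1 progenitor gene, 1 gene of committed cells, 4 myelin genes, and 4 pericyte, 5 microglia and 2 endothelium markers.

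The targeted gene was checked next. *Derl1* read 122, 132 and 128 TPM in the siControl samples, and 44.9, 70.8 and 74.0 TPM in the siDerl1 samples (two-sided exact permutation test, p = 0.1, which is the least this design can give). The main comparison was limma on log2(TPM + 1) over the 10331 genes with a mean of at least 1 TPM, with an adjusted p under 0.05 as the threshold. It called 0 of 10331 genes (0.0%), *Derl1* included (adjusted p = 0.497), and 692 genes (6.70%) at an unadjusted p under 0.05. With a replicate block, in which siControl and siDerl1 samples are matched by number, 57 genes (0.552%) were called and *Derl1* had an adjusted p of 0.00884. These 57 calls depended on the settings, with 2 calls when genes under 1 TPM were kept in the blocked fit and 0 when the intensity trend was left out of it. In those 2 fits *Derl1* was not called, with adjusted p values of 0.104 and 0.229 from limma. Both samples numbered 1 lay apart from the other 4 on the first principal component (55.7% of the variance).

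To ask whether knockdown of *Derl1* moved the lineage under BMP4, the groups were compared gene by gene. Of the 9 genes, 8 passed the filter on low values and *Cspg4* did not. None of the 8 was called by limma, with or without the block. At an unadjusted p under 0.05 there were 0 of the 8 without the block and 2 with it (6.70% and 15.7% of all genes), and 0 had groups that did not overlap, where 1406 of all 10331 genes (13.6%; 5.09% higher and 8.52% lower in siDerl1 NSCs) did. The study's fold change limits, above 1.5 or below 0.8, were applied to the ratio of mean TPM. They were joined to an unadjusted p under 0.05 from limma, where the study used edgeR. With these limits 0 of the 8 passed, beside 0.716% of all genes higher and 1.49% lower. By sign 3 of the 8 were higher and 5 lower in siDerl1 NSCs, beside 4674 higher and 5657 lower of all 10331 genes. Their median log2 fold change was −0.06, against −0.02 over all genes tested.

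*Pdgfra* had the largest fold change of the 8. Its mean was 50.3 ± 17.2 TPM in siControl and 36.4 ± 6.99 TPM in siDerl1 NSCs (SD, n = 3 each), and the log2 fold change was −0.42 (standard error 0.24, 95% interval −0.99 to 0.15, adjusted p = 0.773 from limma). It was lower in the siDerl1 sample of each number, by 0.70, 0.21 and 0.36 on the log2 scale in numbers 1, 2 and 3. With the block the standard error was 0.10 and the interval ran from −0.65 to −0.19, while the adjusted p over all genes was 0.113 and so did not pass. When any 1 of the 6 samples was dropped the value lay between −0.61 and −0.16, and it was −0.16 without siControl sample 1, the sample with the highest level. Without both samples numbered 1 it was −0.28.

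*Mbp* differed in the opposite direction by sign. Its mean was 267 ± 25.4 TPM in siControl and 301 ± 41.4 TPM in siDerl1 NSCs, and the log2 fold change was 0.17 (standard error 0.11, 95% interval −0.10 to 0.44, adjusted p = 0.825 from limma, 0.284 with the block). Its siDerl1 sample was above the siControl sample of the same number by 0.38, 0.05 and 0.07, so that most of the difference came from number 1. *Cnp* was also higher in the siDerl1 sample of each number, by 0.06, 0.09 and 0.03, with a log2 fold change of 0.06 and a 95% interval of −0.11 to 0.23. Thus 3 of the 8 genes went the same way in all 3 numbers, as did 3910 of all genes tested (37.8%; 15.8% higher and 22.1% lower).

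The transcription factors showed no shared direction. The log2 fold change of *Sox10* was 0.02 (standard error 0.14, 95% interval −0.31 to 0.35, adjusted p = 0.988 from limma), and the samples of the same number differed by 0.12, 0.05 and −0.11. That of *Olig1* was −0.13 (95% interval −0.34 to 0.07, adjusted p = 0.817), that of *Nkx2-2* −0.08 (−0.69 to 0.53, adjusted p = 0.969) and that of *Olig2* −0.04 (−0.37 to 0.28, adjusted p = 0.968). With the block, which takes out the differences between sample numbers, the intervals narrowed to −0.10 to 0.14 for *Sox10* and to −0.23 to 0.07 for *Nkx2-2*. *Gpr17* had a log2 fold change of −0.10, which at 2.23 TPM came with an interval of −0.66 to 0.46. For *Cspg4*, the means were 0.240 and 0.123 TPM, and a two-sided exact permutation test gave p = 0.1, which this design cannot go below; the groups did not overlap with siDerl1 lower, as in 8.52% of the genes tested, a set that *Cspg4* was too low to enter.

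**Figure D3:**
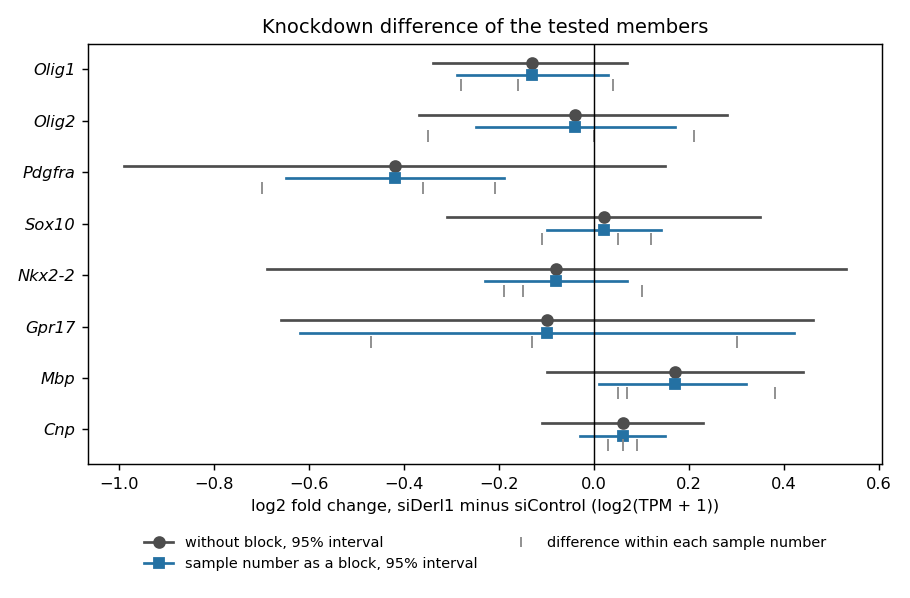
Log2 fold change of the 8 tested genes, siDerl1 minus siControl, with 95% intervals without (grey) and with (blue) the sample number as a block, and ticks for the difference within each of the 3 sample numbers. The grey intervals all cross 0, and the blue intervals of *Pdgfra* and *Mbp* do not, as for 15.7% of all genes at an unadjusted p under 0.05, although neither gene passed after adjustment over all genes (0.113 and 0.284).

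The further genes of the lineage gave the same count in the unblocked fit. Of the 18 progenitor genes tested, 12 genes of committed cells, 16 myelin genes and 10 inhibitors of differentiation, 0 had an adjusted p under 0.05 in limma. The medians of these lists were −0.03, 0.00, 0.05 and −0.01 on the log2 scale. At an unadjusted p under 0.05 there were 4, 2, 0 and 1 genes, respectively, beside 6.70% of all genes. Of the inhibitors, the Notch ligand gene *Jag1* had groups that did not overlap, at 20.0 ± 1.53 and 14.6 ± 1.91 TPM (log2 fold change −0.43, adjusted p = 0.704). Among the progenitor genes *Nxph1*, which encodes a secreted ligand of neurexins, was at 12 ± 1.90 TPM in siControl and 7.11 ± 0.818 TPM in siDerl1 NSCs (log2 fold change −0.68, adjusted p = 0.704), and *C1ql1*, which encodes a secreted C1q-like protein, at 25.5 ± 1.95 and 32.8 ± 2.95 TPM (0.35, adjusted p = 0.704). Among the genes of committed cells, the deacetylase gene *Sirt2* was at 94.2 ± 4.45 and 109 ± 4.90 TPM and *Enpp2*, which encodes autotaxin, at 149 ± 10.2 and 173 ± 13.1 TPM (adjusted p = 0.704 and 0.712). In each of these 4 genes the groups did not overlap, as in 13.6% of all genes. *Aspa* and *Nfasc*, the myelin list's genes with the smallest p, had adjusted p values of 0.857 and 0.840.

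With the block, 1 of 18 progenitor genes, 0 of 12 genes of committed cells, 0 of 16 myelin genes and 1 of 10 inhibitors passed, beside 0.552% of all genes. *Serpine2*, which encodes a secreted protease inhibitor, read 370, 426 and 465 TPM in the siControl samples, and 275, 342 and 386 TPM in the siDerl1 samples (log2 fold change −0.34, adjusted p = 0.0256 with the block). *Bmpr1a*, a type I receptor for BMP4, was at 84.5, 142 and 146 TPM and at 63.2, 107 and 108 TPM, lower by 0.41, 0.40 and 0.43 in numbers 1, 2 and 3 (−0.41, adjusted p = 0.0234 with the block, 0.817 without it). Among the markers of other cells, *Erbb3*, the neuregulin receptor gene, was lower by 0.58, 0.48 and 0.41 (−0.49, adjusted p = 0.00884 with the block) and *Gfap*, the astrocyte filament gene, which was named after its values had been seen, was higher by 0.49, 0.76 and 0.63 (0.62, adjusted p = 0.0219 with the block). With the block and genes under 1 TPM kept, these adjusted p values were 0.121, 0.104, 0.104 and 0.111 for *Serpine2*, *Bmpr1a*, *Erbb3* and *Gfap*, and with the block and no trend they were 0.255, 0.229, 0.229 and 0.229.

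The PDGF family was read beside *Pdgfra*. *Pdgfa*, the gene of its main ligand in this lineage, was at 41.0 ± 3.03 TPM in siControl and 45.9 ± 3.38 TPM in siDerl1 NSCs (log2 fold change 0.16, adjusted p = 0.776 from limma). *Pdgfc* was at 10.6 ± 4.35 and 11.9 ± 4.02 TPM and *Pdgfb* at 1.96 ± 0.719 and 2.29 ± 0.894 TPM, with adjusted p values of 0.950 and 0.953. *Pdgfd* was listed at 0. *Pdgfrb*, the other receptor gene, had a mean under 1 TPM and did not enter the limma fit. It read 0.26, 0.45 and 0.47 TPM in the siControl samples, and 1.34, 0.97 and 1.44 TPM in the siDerl1 samples. Its groups did not overlap, with siDerl1 higher, as in 5.09% of the genes tested (two-sided exact permutation test, p = 0.1, the least this design can give).

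The 9 genes were then read by sample number, which the titles give for both groups. An F test of the number in limma, with the group in the model, called *Nkx2-2*, *Sox10* and *Pdgfra*, 3 of the 8 genes tested, beside 1092 of all 10331 genes (10.6%). In *Nkx2-2* the samples numbered 1 were at 107 and 94.1 TPM, below all of the other 4, which lay between 145 and 185 TPM (adjusted p = 0.000901). In *Sox10* they were at 726 and 787 TPM, above the other 4, which lay between 541 and 649 TPM (adjusted p = 0.00740). In *Pdgfra* they were at 69.8 and 42.5 TPM, each the highest of its own group, but the siDerl1 value was below that of siControl sample 2 (adjusted p = 0.0158). Across all genes tested, both samples numbered 1 lay above the other 4 in 15.7% and below them in 17.0%.

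For the other 5 genes the F test did not pass: the adjusted p values were 0.108 for *Cnp*, 0.123 for *Mbp*, 0.226 for *Olig2*, 0.464 for *Olig1* and 0.674 for *Gpr17*. When the intensity trend was left out of the fit, 0 of the 8 passed, with 0.0610 for *Nkx2-2*, 0.156 for *Sox10* and 0.126 for *Pdgfra*, and 252 of all genes (2.44%) did. *Pdgfra* was also lost when genes under 1 TPM were kept (0.0702), without siControl sample 3 (0.0773) and without siDerl1 sample 3 (0.0653). *Olig2* passed without siDerl1 sample 1 (0.000505) or 2 (0.0374), and *Mbp* without siControl sample 1 (0.000401) or siDerl1 sample 1 (0.00789).

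Among the further genes, the F test of the number called 4 of 18 progenitor genes, 3 of 12 genes of committed cells and 4 of 16 myelin genes, and 8 of 10 inhibitors of differentiation, beside 10.6% of all genes. Among the progenitor genes *Ptprz1* and *Vcan* were higher in the samples numbered 1, and *Serpine2* was called as well, where the samples numbered 1 lay at the bottom of each group. *Pllp* was at 282 and 318 TPM in the samples numbered 1 and between 158 and 221 TPM in the others (adjusted p = 0.000119 from limma), and *Bcas1* was at 435 and 469 TPM against 336 to 400 TPM (0.0179). Both samples numbered 1 were above the other 4 in 10 of the 16 myelin genes tested and below them in 0 (15.7% and 17.0% of all genes). Without the trend the counts were 0, 0, 3 and 5 for the 4 lists, beside 2.44% of all genes.

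Among the inhibitors, both samples numbered 1 were below the other 4 in 5 of the 10 genes tested and above them in 1, *Lingo1* (17.0% and 15.7% of all genes). *Id1*, *Id2*, *Id3* and *Id4*, which encode the Id proteins and are direct targets of BMP signaling, were 4 of the 5, and *Bmpr1a* was the other. *Id1* was at 235 and 259 TPM in the samples numbered 1 and between 418 and 734 TPM in the others (adjusted p = 2e-06 from limma), and *Id3* was at 980 and 958 TPM against 1364 to 1995 TPM (2.73e-05). *Id2* was at 475 and 389 TPM against 734 to 1003 TPM (2.35e-05), and *Id4* was at 186 and 197 TPM against 365 to 490 TPM (6.48e-06). The 4 Id genes passed in all 11 fits run. The adjusted p of *Bmpr1a* was 0.000179. *Nkx2-2* thus moved with the Id genes between sample numbers, and *Sox10* and the myelin genes *Pllp*, *Ndrg1* and *Adamts4* against them. Other markers moved with the number too: the neural stem cell list had 5 of 7 and the astrocyte list 4 of 6 genes called (10.6% of all genes were; without the trend 1 of 7 and 1 of 6, beside 2.44%), among them, with the trend only, *Fabp7* (0.00284), *Vim* (3008 and 3386 TPM in the samples numbered 1 and 4644 to 5044 TPM in the others) and *S100b* (679 and 708 TPM against 445 to 467 TPM). The neural stem cell gene called without the trend as well was *Sox9*. It was at 7.5 and 9.42 TPM in the samples numbered 1 and between 34.7 and 38.3 TPM in the others (adjusted p = 3.27e-05 from limma, called in 11 of 11 fits). Of the Schwann cell and neural crest list, 3 of 5 genes were called, and 1 of 5 without the trend. *Ngfr* was at 44.6 and 34.1 TPM in the samples numbered 1 and between 122 and 160 TPM in the others (adjusted p = 1.44e-06 from limma, called in 11 of 11 fits), and *Erbb3* was at 296 and 198 TPM against 141 to 197 TPM (0.00128, and 0.0697 without the trend). The part of the Id genes, of these markers and of whatever else set number 1 apart in the levels of the lineage genes was not tested.

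**Figure D4:**
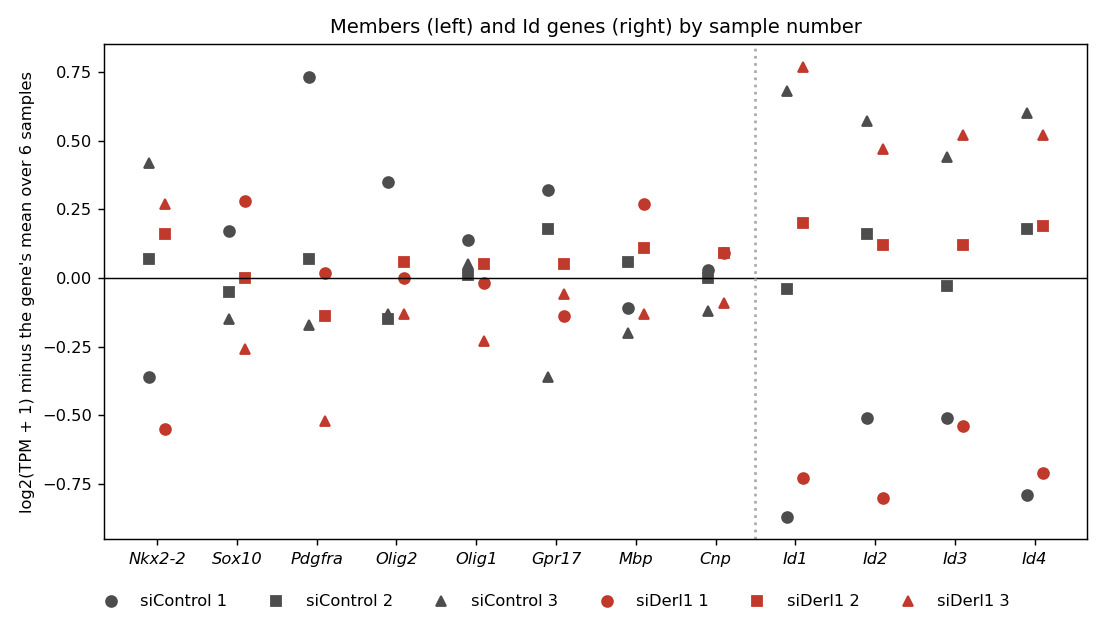
Log2(TPM + 1) of each sample minus the gene's mean over the 6 samples, for the 8 tested lineage genes and the 4 Id genes; colors give the group and symbols the sample number. Circles (number 1) lie at the bottom for *Nkx2-2* and the Id genes and at the top for *Sox10*, while for *Mbp* and *Cnp* both triangles (number 3) are the lowest.

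Over the 6 samples the genes fell into no single pattern. On the log2(TPM + 1) scale Pearson's r was 0.83 between *Mbp* and *Cnp*, 0.82 between *Sox10* and *Cnp*, 0.82 between *Olig2* and *Pdgfra*, and −0.93 between *Sox10* and *Nkx2-2* (n = 6 samples, which share their cell line and their numbering). The neighbors *Olig1* and *Olig2* had an r of 0.63, and *Mbp* had an r of 0.05 and 0.01 with them. Among all genes with a mean of at least 5 TPM, those most like *Sox10* were *Ttyh1* (0.999) and *Ggps1* (0.998), those most like *Nkx2-2* were *Lrpap1* (0.997) and *Dusp7* (0.995), and those most like *Pdgfra* were *Itm2c* (0.992) and *Pgm1* (0.990). For *Olig1* they were *Tnrc6a* (0.993) and *Uhrf2* (0.986), for *Olig2* *Bbc3* (0.980) and *Lppr1* (0.979), and for *Mbp* *Slc37a1* (0.989) and *Hps5* (0.982). For *Cnp* they were *Slc17a5* (0.983) and *Cd9* (0.976), and for *Gpr17* *Apold1* (0.973) and *Supt5h* (0.965). With so few points such values are a description only.

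The promoters of *Pdgfra* and *Nkx2-2* are shown because both genes passed the F test of the sample number; *Sox10*, the third that passed, had no entry in the promoter table. As background, bHLH factors such as Olig1 and Olig2 bind the E-box. The sequences are from RefSeq on GRCr8, 250 bases before to 50 after the annotated start, read 5′ to 3′ on the strand of the gene, with E-boxes (CANNTG, which reads alike on both strands) in capitals. That of *Pdgfra* is at chr14:33408467-33408766 on the minus strand and that of *Nkx2-2* at chr3:155075573-155075872 on the minus strand.
Pdgfra: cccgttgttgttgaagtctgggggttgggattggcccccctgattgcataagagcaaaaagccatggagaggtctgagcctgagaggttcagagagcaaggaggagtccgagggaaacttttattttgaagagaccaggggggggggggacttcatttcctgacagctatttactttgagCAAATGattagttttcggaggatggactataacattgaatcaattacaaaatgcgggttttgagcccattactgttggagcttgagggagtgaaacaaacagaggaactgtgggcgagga
Nkx2-2: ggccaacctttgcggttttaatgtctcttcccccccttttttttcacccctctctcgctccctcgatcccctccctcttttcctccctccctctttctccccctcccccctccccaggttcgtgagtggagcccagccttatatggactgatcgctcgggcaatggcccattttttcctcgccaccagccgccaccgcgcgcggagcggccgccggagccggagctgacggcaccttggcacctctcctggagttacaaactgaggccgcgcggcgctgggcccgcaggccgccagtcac
The window of *Pdgfra* holds 1 E-box and that of *Nkx2-2* holds 0, where 72.1% of all 33469 promoters of this length hold at least 1. Of the 9 genes, 7 were in the promoter table. *Cnp* had 2 E-boxes and *Mbp*, which has 2 windows, had 0 and 3. *Olig2* had 1 match to the SOX core ACAAT (either strand, held by 33.7% of all promoters), as against 0 and 2 in *Mbp*. It also had 1 match to GGCGCC, a GC-rich element bound by Smad proteins of the BMP pathway (11.0%). *Nkx2-2*, *Cspg4*, *Gpr17* and the first of the 2 windows of *Mbp* had no match to any of the 3 motifs. A match is a description of these letters and not of binding.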

How the data were processed

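The authors extracted total RNA, selected poly(A) RNA, made directional libraries and sequenced them on an Illumina HiSeq X. Per the labels, reads were trimmed with Trimmomatic (0.39), mapped to rn6 with STAR (2.7.3a) and quantified with RSEM (1.3.2), and edgeR (3.28.1) was used for the authors' own test. The values deposited are TPM, rounded to 2 decimals and summing to 1000000 per sample; depth is not given by them, and no counting error can be stated. Between 11641 and 11808 genes per sample were above 0.

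The 6 tables (17315 rows) were joined by RefSeq identifier, and rows were found by symbol. Groups and numbers came from the sample titles. The groups were compared with limma (3.58.1, R 4.3.3; lmFit, eBayes with an intensity trend) on log2(TPM + 1) over the 10331 genes with a mean of at least 1 TPM, with Benjamini-Hochberg adjustment over all of them. With the added 1, differences of genes near 1 TPM come out too small. Intervals are 95% intervals of the same fit. The sample number was tested with an F test (3 numbers, group in the model). Single genes were also compared with an exact permutation test. The fits were tested on simulated data.

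Deviations from the group means correlated between samples of the same number at 0.70, 0.35 and 0.51 (10331 genes), and the labels number both groups alike, so the number was also used as a block. Between 2 and 3 they correlated at 0.34 and 0.25 across numbers, so the pairing mainly sets number 1 apart. No pair of samples shared more than 0.232% of values among the genes tested.

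The 9 genes, the lists and the tests were chosen with earlier results of these data known. The genes named are the 9, *Derl1*, in each lineage list the genes called in either fit, the 3 with the highest mean TPM and the 2 with the smallest p, in each marker list the 3 with the highest mean, and the 2 genes most like each tested gene. Genes that this rule does not name, such as *Gfap*, *Mag* and those called by the F test, were chosen after their values had been seen. Alternatives were a pseudocount of 0.1, no filter, median-of-ratios scaling, no trend, the block alone and with no filter or no trend, each of the 6 samples left out, and, added after seeing the data, both samples numbered 1 left out. Promoter sequences are from RefSeq on GRCr8 and serve no comparison with rn6 positions. Some genes of the lists are not reported here by name.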

Additional observations from a re-analysis of the deposited data

How the results depend on the processing

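For the knockdown comparison, 0 of the 8 genes tested were called in each of the 14 alternatives, and *Cspg4*, which could be tested only in the 2 alternatives that kept genes under 1 TPM, was not called in them, and with each sample left out the count stayed between 0 and 0. The number of all genes called was 0 without the block, 57 with the replicate block, 2 with the replicate block and no filter on low values, 0 with the block and no trend, and 35 without both samples numbered 1 (chosen after seeing the data); with 1 sample left out it stayed at 0. The median of the members, −0.06, ranged from −0.12 to 0.06 with samples left out, the latter without siControl sample 1. With 1 sample or number 1 left out, *Olig2* ranged from −0.13 to 0.12, *Sox10* from −0.12 to 0.15, *Nkx2-2* from −0.28 to 0.18 and *Gpr17* from −0.30 to 0.08. The signs of *Olig1*, *Pdgfra*, *Mbp* and *Cnp* held in all 14 alternatives. Their sizes did not stay fixed with 1 sample or number 1 left out. *Olig1* then ranged from −0.19 to −0.05, *Pdgfra* from −0.61 to −0.16, *Mbp* from 0.06 to 0.27 and *Cnp* from 0.02 to 0.12. Reversed signs, none of them called, were found without siControl sample 1 for *Olig2* (0.12) and *Gpr17* (0.04), without siControl sample 3 for *Sox10* (−0.05) and *Nkx2-2* (0.11), without siDerl1 sample 1 for *Sox10* (−0.12) and *Nkx2-2* (0.18), without siDerl1 sample 3 for *Olig2* (0.01), and without both samples numbered 1 for *Olig2* (0.11), *Sox10* (−0.03) and *Gpr17* (0.08). For the sample number, 1092 genes were called, against 591 with no filter, 252 with no trend and 612 to 1672 with 1 sample left out, and 3 members against 0 with no trend and 2 to 5 with 1 sample left out. The block changed no call among the genes tested of the 9; the cause of the other shifts was not tested. Depth is unknown, so values near 0, such as those of *Cspg4*, carry an error that cannot be stated.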
